A study of Mus musculus with 4 samples.

Results

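Replication-dependent histone genes were taken as the rows whose symbol begins with Hist1h, Hist2h, Hist3h or Hist4h, which gave 70 of the 55450 rows of the deposited table. They comprised 6 genes of the linker histone H1, 20 of H2A, 19 of H2B, 12 of H3 and 13 of H4, and 3 of the 70 were annotated as pseudogenes. Most lay in the large histone cluster of chromosome 13 (56 genes), followed by chromosome 3 (10), chromosome 11 (3) and chromosome 6 (1). The study profiled natural killer (NK) cells and T cells by RNA sequencing. Both were sorted from tumours of CT26, a mouse colon carcinoma line, grown under the skin of syngeneic BALB/C mice. The labels name no mutation and no treatment other than the tumour cell injection, in either cell type. The 4 libraries were NK pool 1, NK pool 2, T pool 1 and T pool 2, where pool 1 combined 4 mice and pool 2 combined 6. The number of replicates was therefore 2 pools per cell type. The sorting gate, the mice's age and whether poly(A) RNA was selected were not given in the sources used here.

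Replication-dependent histones package newly made DNA, and their genes are switched on as cells enter S phase and silenced at its end. Their mRNAs carry no introns and normally end in a conserved stem-loop in place of a poly(A) tail. The stem-loop-binding protein SLBP holds this structure during processing, translation and decay. Core histones H2A, H2B, H3 and H4 form the nucleosome, and H1 binds the linker DNA between nucleosomes. Tumour-infiltrating lymphocytes can divide, so the level of these mRNAs was set beside Mki67, which encodes a nuclear protein of cycling cells.

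The stem-loop that defines the family is shown first for members on which the results turn, with the stem and loop in capitals. Each window is the DNA sense strand of the GENCODE M21 transcript with its position on GRCm38, and T stands for U in the RNA.
Hist1h1e (chr13:23621775-23621804, minus strand): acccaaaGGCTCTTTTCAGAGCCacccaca
Hist1h1c (chr13:23739505-23739534, plus strand): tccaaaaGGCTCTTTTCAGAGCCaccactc
Hist1h2ac (chr13:23683470-23683499, minus strand): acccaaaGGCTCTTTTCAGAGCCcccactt
Hist3h2ba (chr11:58949342-58949371, plus strand): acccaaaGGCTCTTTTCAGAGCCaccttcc
Hist1h2bm (chr13:21722499-21722528, plus strand): acacaaaGGCTCTTTTCAGAGCCactaagc
Hist1h3d (chr13:23576237-23576266, plus strand): ccccaaaGGCTCTTTTCAGAGCCacccccg
Hist1h4d (chr13:23581943-23581972, plus strand): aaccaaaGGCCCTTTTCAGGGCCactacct
Hist2h4 (chr3:96262932-96262961, minus strand): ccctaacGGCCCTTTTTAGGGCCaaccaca

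The commonest hairpin with a 6-base stem and a 4-base loop in the first 150 bases after the members' stop codons was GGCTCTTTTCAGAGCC. With at most 3 mismatches allowed on the sense strand, it was found in 44 of the 67 members with a coding sequence (65.7%). Where at least 40 bases are annotated after the stop codon it was found in 44 of 51 members (86.3%) and in 32 of 20755 other protein-coding genes (0.154%). Of the 23 coding members without a match, 15 had fewer than 16 annotated bases after the stop codon, so the annotation left no room for one. The exact 16 letters occurred in 3 H1, 10 H2A, 8 H2B and 5 H3 genes. The H4 genes differed in the stem: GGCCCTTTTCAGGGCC was found in 7 of them and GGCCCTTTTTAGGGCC in 2, Hist2h4 and Hist1h4i.

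The promoters printed next are those of the most abundant pair, Hist1h1e and Hist1h1c, and of Hist1h2ac, whose start lies 251 bases from that of Hist1h2bc on the other strand. They cover the 250 bases before the start in RefSeq (GRCm38.p6), at chr13:23622559-23622808 on the minus strand, chr13:23738557-23738806 on the plus strand and chr13:23683960-23684209 on the minus strand. Capitals mark the box CCAAT, the element TATAAA, the H1 box AAACACA and the octamer ATTTGCAT, or the reverse complement of each.
Hist1h1e promoter: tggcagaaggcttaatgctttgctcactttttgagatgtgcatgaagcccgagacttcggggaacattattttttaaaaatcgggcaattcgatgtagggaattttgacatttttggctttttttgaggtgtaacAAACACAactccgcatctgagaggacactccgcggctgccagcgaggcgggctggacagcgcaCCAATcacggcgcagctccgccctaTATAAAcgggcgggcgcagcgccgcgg
Hist1h1c promoter: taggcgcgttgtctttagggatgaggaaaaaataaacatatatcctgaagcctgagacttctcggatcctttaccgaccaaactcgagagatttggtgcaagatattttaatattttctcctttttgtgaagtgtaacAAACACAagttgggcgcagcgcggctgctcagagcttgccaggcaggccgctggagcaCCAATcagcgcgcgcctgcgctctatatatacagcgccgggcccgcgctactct
Hist1h2ac promoter: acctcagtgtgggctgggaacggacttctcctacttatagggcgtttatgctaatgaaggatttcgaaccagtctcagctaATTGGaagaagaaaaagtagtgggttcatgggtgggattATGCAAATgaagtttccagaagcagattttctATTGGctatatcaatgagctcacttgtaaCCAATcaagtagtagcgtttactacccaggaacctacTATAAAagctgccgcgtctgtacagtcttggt

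Both H1 promoters held AAACACA, at 115 bases before the start in Hist1h1e and 112 in Hist1h1c, and CCAAT at 52 and 54 bases. The Hist1h2ac promoter held the octamer ATTTGCAT in reverse 130 bases before the start. A promoter entry was found for 62 of the 70 genes, as 63 promoters, and motifs were searched on both strands. CCAAT occurred in 6 of 6 H1, 18 of 18 H2A, 17 of 17 H2B, 8 of 10 H3 and 3 of 12 H4 promoters, against 33.8% of 32788 other promoters. The octamer was found in 7 of 18 H2A and 7 of 17 H2B promoters and in 0 of the H1, H3 and H4 promoters, against 1.56% of the others. AAACACA occurred in 5 of 6 H1, 2 of 18 H2A and 2 of 17 H2B promoters and in 0 of the H3 and H4 promoters, against 6.23% of the others. These matches describe letters in a window and not bound sites.

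Gene-assigned reads numbered 2228226 in NK pool 1, 2665928 in NK pool 2, 2067728 in T pool 1 and 2893240 in T pool 2. The deposited values are reads per 1000000 of scaled library size, called normalized CPM here, with no correction for gene length. One read was worth between 0.354 and 0.551 normalized CPM. Ribosomal RNA took 36.9% to 38.8% of reads in the NK libraries and 42.7% to 52.4% in the T libraries, the most in T pool 1. The markers followed the labels: summed T cell markers stood at 51.4 to 67.1 normalized CPM in NK and at 1901 and 2173 in T libraries, and summed NK markers at 1300 and 1478 against 38.3 to 43.0. Summed macrophage markers reached 901 and 192 in NK pools 1 and 2 and 228.5 and 24.8 in T pools 1 and 2, with reads for 8, 8, 8 and 5 of the 8 markers. All 4 keratins of carcinoma cells were at 0 in every library. Members shared their source libraries and often their sequence, so they are not replicates of a cell type.

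Histone mRNA made up a small share of reads, with overlapping levels in NK and T cells. Together the 70 genes received 2364 reads, or 304 reads per 1000000 in NK pool 1 (exact 95% interval 281 to 328) and 225 in NK pool 2 (207 to 243). The corresponding shares were 229 (209 to 251) in T pool 1 and 212 (196 to 230) in T pool 2. These intervals cover counting error only. NK pool 1 was the highest on this unscaled share, and the other 3 libraries had overlapping intervals. This share counts ribosomal RNA reads, which differed between libraries. Per 1000000 reads outside ribosomal RNA genes, histones took 481 and 367 in NK pools 1 and 2 and 481 and 370 in T pools 1 and 2. On that scale NK pool 1 did not stand above T pool 1. In normalized CPM the sums were 275 and 212 in NK and 261 and 218 in T, so the groups overlapped, with means of 244 ± 44.5 and 239 ± 30.7 (SD, n = 2 each; log2 difference 0.03). In bulk libraries such as these, fewer cycling cells and less histone mRNA per cell cannot be told apart.

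Linker histone H1 genes took most of the histone reads. They accounted for 1364 of the 2364 reads (57.7%), with H2A at 420 (17.8%), H4 at 282 (11.9%), H2B at 169 (7.15%) and H3 at 129 (5.46%). The H1 share of histone reads was 55.5% and 62.1% in NK pools 1 and 2 and 47.5% and 63.7% in T pools 1 and 2. Divided by exonic length, so that genes can be compared, H1 took 33.9% and 44.5% of the summed per-kilobase level in NK and 26.2% and 47.1% in T. On both scales the H1 share was lower in pool 1 than in pool 2 of each cell type.

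**Figure D1:**
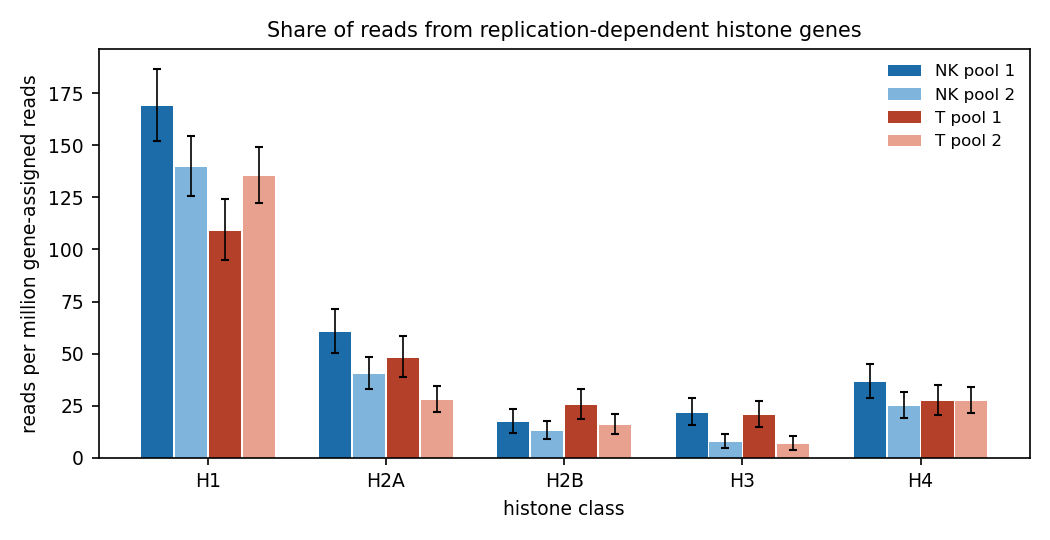
Reads assigned to each histone class per 1000000 gene-assigned reads in the 4 libraries, with exact 95% intervals for counting error as bars. H1 stood highest in every library, between 109 and 169 on this scale, and H3 was 20.3 to 21.5 in the pool 1 libraries against 6.57 to 7.50 in the pool 2 libraries.

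Of the 70 genes, 54 had at least 1 read and 16 had none in any library. The 16 comprised 1 H1 gene (the testis linker histone Hist1h1t), 4 H2A, 6 H2B, 4 H3 and 1 H4 gene. A count of 0 allows up to 3 reads, which is 1.35 and 1.13 reads per 1000000 in NK pools 1 and 2 and 1.45 and 1.04 in T pools 1 and 2. The test of NK against T was limited to genes whose mean reached 1 normalized CPM, which kept 31 members: 5 H1, 9 H2A, 6 H2B, 5 H3 and 6 H4. The other 39 had at most 9 reads over all libraries. A gene that passed this filter only through the group where it was high had to differ, so counts over the 31 describe the tested genes and are not evidence about the family.

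Hist1h1e, which encodes the linker histone H1.4, was the most abundant member by reads. It is a gene of 1 exon at chr13:23620629-23622558 on the minus strand (GRCm38), and its annotated exon overlaps Hist1h2be and the gene model Gm11398 on the same strand. Its level was 88.7 and 66.7 normalized CPM in NK pools 1 and 2 and 52.3 and 48.5 in T pools 1 and 2. Both NK values lay above both T values. The log2 difference of NK minus T was 0.60 (SE 0.36; limma with Benjamini-Hochberg adjustment, adjusted p = 0.551). Reads there that belong to the overlapping genes are not separable.

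Hist1h1c, which encodes the linker histone H1.2, lay at chr13:23738808-23740367 on the plus strand. It stood at 44.3 and 45.0 normalized CPM in NK and at 50.7 and 74.4 in T, so both T values lay above both NK values. The log2 difference was -0.45 (SE 0.38; limma with Benjamini-Hochberg adjustment, adjusted p = 0.678). Per kilobase, the mean level of Hist1h1e was 33.2 and that of Hist1h1c 34.4 normalized CPM, the highest of all members. Neither difference between cell types passed the threshold, although they ran in opposite directions.

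The ratio of Hist1h1e to Hist1h1c reads was computed after these values were seen. It was 2.00 in NK pool 1 (218 against 109 reads, exact 95% interval 1.58 to 2.54) and 1.48 in NK pool 2 (188 against 127, 1.18 to 1.87). In T pool 1 the ratio was 1.03 (95 against 92 reads, 0.767 to 1.39) and in T pool 2 it was 0.652 (137 against 210, 0.522 to 0.813). Each NK ratio was above each T ratio, and the scaling of the libraries cancels out of it. The mean log2 ratio was higher in NK by 1.07, with SDs of 0.31 in NK and 0.47 in T. The pair was chosen for its opposite differences, which fixes the order of the ratios, so no test is given.

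The other H1 genes were lower. Hist1h1b, encoding H1.5, was at 8.95 and 10.6 normalized CPM in NK and 7.16 and 5.67 in T, with both NK values above both T values. Hist1h1d, encoding H1.3, stood at 9.36 and 7.09 in NK and 9.36 and 4.96 in T, so its groups overlapped. Hist1h1a, encoding H1.1, was at 1.63 and 2.48 in NK and at 4.41 and 4.96 in T, the T values being the higher. Its log2 difference was -0.91 (SE 0.72; limma, Benjamini-Hochberg adjusted p = 0.659), on 4 and 7 reads in NK and 8 and 14 in T. The summed H1 level of 153, 132, 124 and 139 normalized CPM in NK pools 1 and 2 and T pools 1 and 2 had overlapping groups, and without Hist1h1e, its most abundant member, its log2 ratio of NK to T moved from 0.12 to -0.32.

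**Figure D2:**
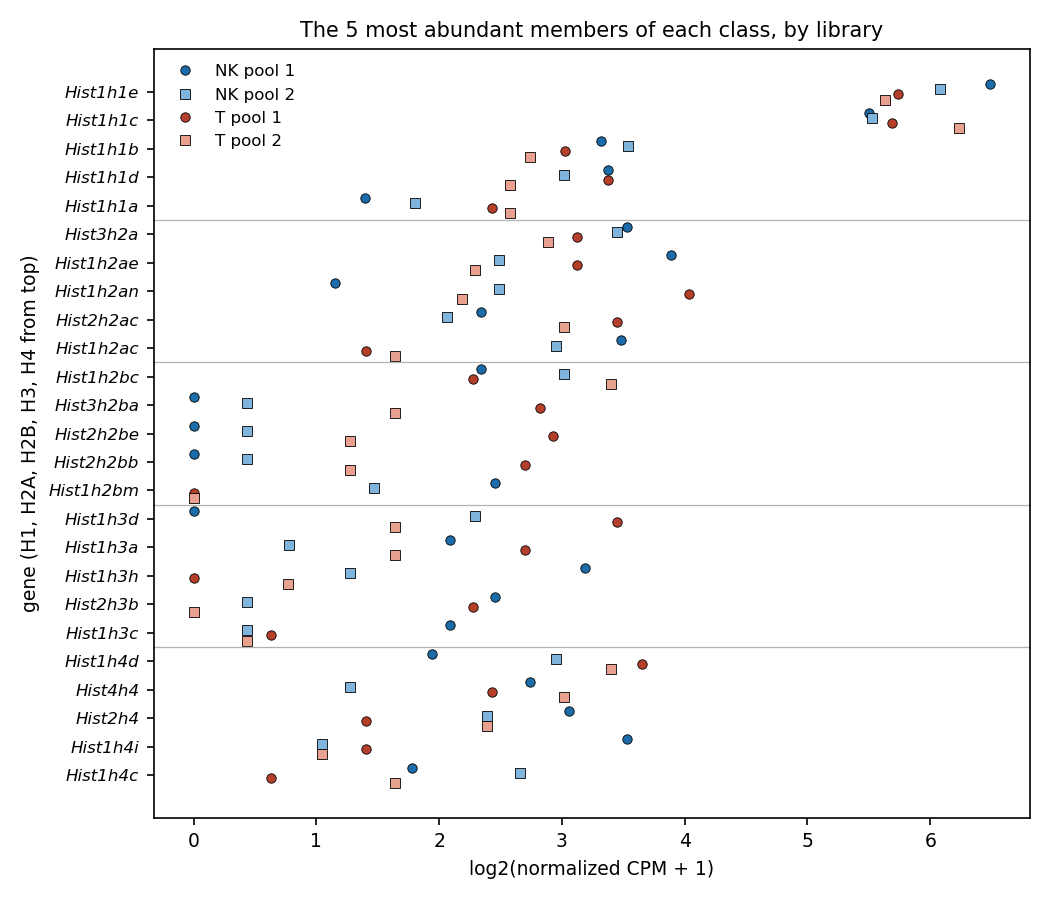
Levels of the 5 most abundant members of each class as log2(normalized CPM + 1), with NK in blue, T in red, pool 1 as circles and pool 2 as squares. Hist1h1e and Hist1h1c stand apart from the rest in all 4 libraries, Hist1h2ac lies to the right in both NK libraries, and Hist3h2ba, Hist2h2be and Hist2h2bb lie to the right in both T libraries.

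H2A genes gave values in both directions. Hist1h2ac, a core H2A gene at chr13:23681467-23683948 on the minus strand, stood at 10.2 and 6.74 normalized CPM in NK and at 1.65 and 2.13 in T. Its annotated exon overlaps the gene model Gm24991 on the same strand and Gm44350 on the opposite strand, whose reads are not separable. Both NK values were above both T values, on 25 and 19 reads in NK and 3 and 6 in T. Its log2 difference of 1.69 (SE 0.69) had an unadjusted p of 0.0326 and an adjusted p of 0.322 (limma, Benjamini-Hochberg), the lowest of any member. In 12 settings, leaving out each library among them, its adjusted p ranged from 0.212 to 0.881.

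Hist3h2a, on chromosome 11, stood at 10.6 and 9.93 normalized CPM in NK and 7.71 and 6.38 in T, again with both NK values above both T values, and its exon overlaps Trim17 on the same strand. Hist2h2ac, on chromosome 3, showed the opposite order, with 4.07 and 3.19 in NK and 9.91 and 7.09 in T (log2 difference -1.03, SE 0.64; limma, Benjamini-Hochberg adjusted p = 0.559). Hist1h2ae and Hist1h2an had overlapping groups. Hist1h2ae stood at 13.8 and 4.61 in NK and at 7.71 and 3.90 in T, higher in pool 1 of each. Hist1h2an was at 1.22 and 4.61 in NK and at 15.4 and 3.54 in T, so T pool 1 stood apart from the other 3. Only 14.2% of the 50-base stretches of Hist1h2an are unique among annotated transcripts, so its reads may be shared with copies of the gene. The summed H2A level was 54.5 and 37.9 in NK and 54.5 and 28.3 in T.

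Of the 5 class sums, H2B differed most between NK and T. Its summed level was 15.5 and 12.1 normalized CPM in NK pools 1 and 2 and 28.6 and 15.9 in T pools 1 and 2, with means of 13.8 ± 2.41 and 22.3 ± 8.97 (SD, n = 2 each). The groups did not overlap, but on the unscaled share of 17.1 and 12.8 reads per 1000000 in NK and 25.1 and 15.6 in T they did. The log2 ratio of NK to T was -0.70, and it was -0.21 without T pool 1.

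The H2B genes with the widest difference had few reads. Hist3h2ba, on chromosome 11, had 0 and 1 reads in NK and 11 and 6 in T, or 0 and 0.355 against 6.06 and 2.13 normalized CPM. Hist2h2be had 0 and 1 reads in NK and 12 and 4 in T. Hist2h2bb had 0 and 1 against 10 and 4 reads. T pool 1 was the highest library for all 3, and both T values exceeded both NK values. Granulocyte markers were also highest in T pool 1, at 89.2 normalized CPM against 19.9 and 20.9 in NK and 12.0 in T pool 2, and their part in these values was not tested. No 50-base stretch of Hist2h2bb is unique, and its exons overlap other gene models on chromosome 3, so its reads cannot be assigned to it with certainty. Hist1h2bm ran the other way, with 11 and 5 reads in NK and 0 and 0 in T (4.47 and 1.77 against 0 and 0 normalized CPM). Hist1h2bc, the most abundant H2B gene, stood at 4.07 and 7.09 normalized CPM in NK and 3.85 and 9.57 in T, with overlapping groups and pool 2 above pool 1 in both cell types. A further pair, named after its values were seen, had reads in a single library each: Hist1h2bk had 12 in NK pool 1 and the H2A gene Hist1h2ak had 10 in T pool 1.

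As a sum, H3 genes separated the pools more than the cell types. Their summed level was 19.5 and 7.09 normalized CPM in NK pools 1 and 2 and 23.1 and 6.73 in T pools 1 and 2. Both pool 1 libraries stood above both pool 2 libraries, and NK overlapped T. Hist1h3h was at 8.14 and 1.42 in NK and 0 and 0.709 in T, and only 6.08% of its 50-base stretches are unique. Hist1h3d stood at 0 and 3.90 in NK and at 9.91 and 2.13 in T. Hist1h3a was at 3.25 and 0.709 in NK and 5.51 and 2.13 in T, the pool 1 library being the higher in each cell type. Hist2h3b, with no unique stretch, and Hist1h3c had at most 19 and 11 reads in all.

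H4 genes gave a summed level of 32.9 and 23.4 normalized CPM in NK and 30.8 and 28.0 in T, with overlapping groups. Hist1h4d was the most abundant, at 2.85 and 6.74 in NK and 11.6 and 9.57 in T, both T values being above both NK values (log2 difference -1.08, SE 0.64; limma, Benjamini-Hochberg adjusted p = 0.547). Hist2h4 stood at 7.32 and 4.25 in NK and at 1.65 and 4.25 in T, so the pool 2 libraries were equal at 3 digits. Hist1h4i reached 10.6 in NK pool 1 and lay between 1.06 and 1.65 in the other 3 libraries. Hist4h4, the single member on chromosome 6, was at 5.69 and 1.42 in NK and 4.41 and 7.09 in T. Hist1h4c stood at 2.44 and 5.32 in NK and 0.551 and 2.13 in T, where both NK values were the higher. Without Hist1h4d the log2 ratio of the H4 sum moved from -0.06 to 0.31.

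The comparison of NK with T cells across all genes found no member past the threshold. Limma on log2(normalized CPM + 1) with Benjamini-Hochberg adjustment at 0.05 called 280 of 12105 genes, which is 2.31% of those tested, with 148 higher in NK (1.22%) and 132 in T (1.09%). It called 0 of the 31 members, edgeR's quasi-likelihood test called 0 against 2.73% of all genes, and DESeq2 called 0 against 3.55%. At an unadjusted p under 0.05 limma counted 3 members (Hist1h2ac at 0.0326, Hist3h2ba at 0.0389 and Hist1h2bm at 0.0452), against 12.8% of all genes, edgeR 4 against 12.6%, and DESeq2 1 against 10.3%. With the pool of mice as a block, limma called 1002 genes (8.28%) and 0 members, and without any 1 of the 4 libraries the number fell to 0 genes (before adjustment, 752 to 1754). With 2 pools in each cell type, the p-values draw on spread shared across genes, and a missed threshold does not show that the levels were the same.

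On the scaled values, both NK values lay above both T values for 10 members (22.1% of all genes) and below them for 8 (21.3% of all genes). These 18 of the 31 tested members compare with 43.4% of all genes. The 10 include Hist2h4 and Hist1h2ai, whose pool 2 libraries held equal reads in NK and T (12 and 12, and 2 and 2) and differed through the library size and scaling alone. The median log2 difference was 0.22 over the 31 members, 17 positive and 14 negative, and 0.02 over all genes. By class, the median was 0.22 for H1, 0.48 for H2A, -0.97 for H2B, 0.31 for H3 and 0.05 for H4. For H2A the log2 ratio of the sums was 0.16, but 0.41 without the library scaling factor. It was 0.92 over members with at least 50% unique 50-base stretches, a restriction chosen after seeing the data. Of these members only Hist3h2a, Hist1h2ae and Hist1h2ac had reads, so the value rests in part on Hist1h2ac, already described above. For H3 and H4 the sums ran opposite to the class medians, at -0.17 and -0.06, but without the library scaling factor they were 0.11 and 0.17. Dropping that factor also moved the median over all genes, from 0.02 to 0.22. On reads outside ribosomal RNA genes the median over all genes was -0.0035.

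**Figure D3:**
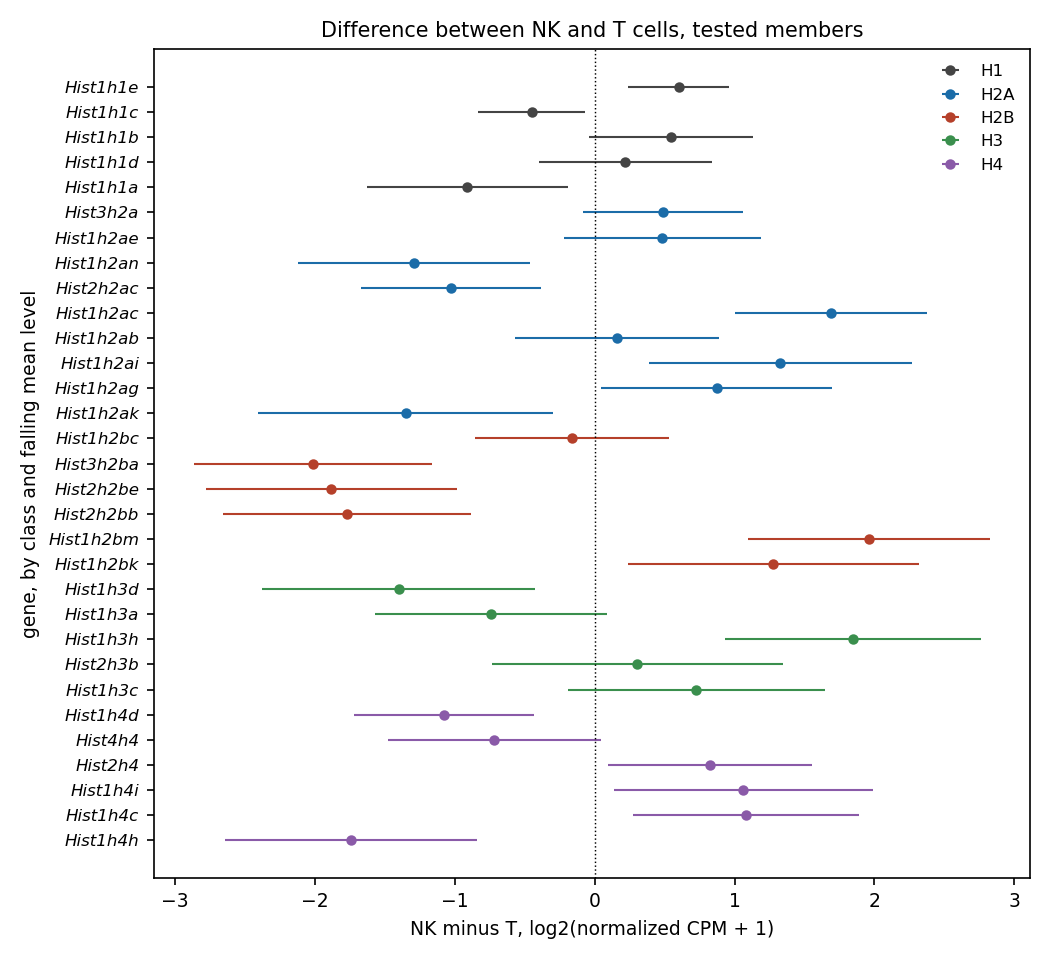
The log2 difference of NK minus T for the 31 tested members by class, with SE from the limma fit as bars and 0 as the line of no difference. Points lie on both sides of 0 within every class, from 1.96 for Hist1h2bm to -2.01 for Hist3h2ba, and no member passed the adjusted threshold.

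Mki67 was higher in pool 1 than in pool 2 of each cell type, and higher in NK than in T within each pool. Its level was 235.5 and 110.6 normalized CPM in NK pools 1 and 2 and 184.5 and 70.9 in T pools 1 and 2. Across pools the groups overlapped. NK minus T was 0.49 on the log2 scale (SE 0.49; limma, Benjamini-Hochberg adjusted p = 0.731, and 0.402 with the pool of mice as a block). Without NK pool 1 the difference became -0.05, and without T pool 2 it became -0.19.

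The pool 1 to pool 2 ratio was then compared between histones and Mki67, cell type by cell type. For Mki67 the ratio was 2.13 in NK (95% interval 1.85 to 2.45) and 2.60 in T (2.18 to 3.12). Summed core histones were also higher in pool 1, by 1.52 in NK (1.28 to 1.82) and 1.74 in T (1.44 to 2.09). For H1 the ratio was 1.16 in NK (1.00 to 1.34) and 0.894 in T (0.756 to 1.06). These intervals cover counting error and not differences between mice, and the difference between pools was not tested over samples.

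Among the core classes, the H3 sum had the highest ratios, 2.75 in NK (1.60 to 4.90) and 3.44 in T (1.95 to 6.25). In NK it rested mostly on Hist1h3h (20 and 4 reads in pools 1 and 2) and Hist2h3b (11 and 1), whose sequence is little or not unique. Hist1h3d ran the other way in NK, with 0 and 11 reads. Members with at least 50% unique stretches held 55.8% of the H3 reads. The H2A ratios were 1.44 (1.11 to 1.87) and 1.92 (1.42 to 2.62). H2B gave 1.28 (0.786 to 2.10) and 1.80 (1.18 to 2.74), and H4 1.41 (1.00 to 1.98) and 1.10 (0.768 to 1.57). The H4 ratio in T was 0.992 without the scaling factor and 1.19 on reads outside ribosomal RNA genes. By a rule that counts 0 against 0 as met, pool 1 was at least 1.5 times pool 2 in both cell types for 9 of the 31 members. The share of all genes by the same rule was 10.8%. Pool 2 was at least 1.5 times pool 1 for 2 members, against 11.2%. The 9 comprised 3 of 5 H3, 2 of 9 H2A, 2 of 6 H2B, 2 of 6 H4 and 0 of 5 H1 members. Of these, Hist1h2ak and Hist1h4h had no reads in NK, and Hist1h2bk and Hist1h2bm had none in T. Hist1h3c and Hist1h4i had equal reads in the T pools (1 and 1, and 3 and 3) and passed there through library size and scaling. Only Hist1h2ae, Hist1h3a and Hist2h3b had more reads in pool 1 of both cell types, so the count does not set the core classes apart from H1. Macrophage markers moved with the pools as well, by 4.69 (4.27 to 5.16) in NK and 9.21 (7.14 to 12.0) in T, and their part in these ratios was not tested.

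**Figure D4:**
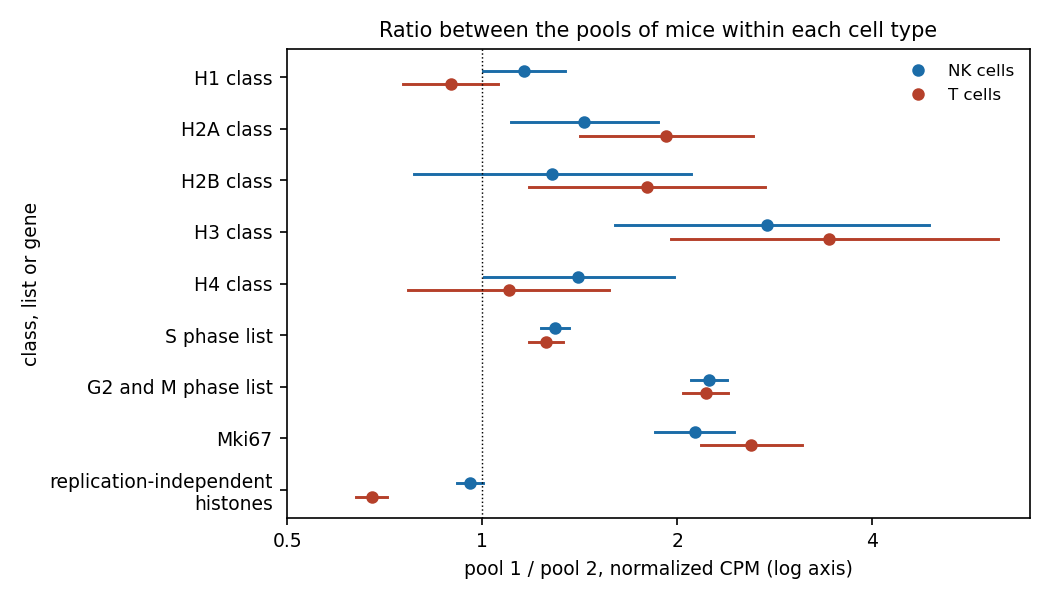
Ratio of pool 1 to pool 2 on a log axis for the summed histone classes and Mki67, in NK and T cells, with 95% counting intervals. The S phase, G2 and M phase and replication-independent histone lists are also shown. Mki67, H3 and the G2 and M phase list lie between 2.13 and 3.44 in both cell types, whereas H1 lies at 1.16 and 0.894 and the replication-independent histones at 0.958 and 0.675.

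Histone reads per Mki67 read were lower in pool 1. All members gave 1.17 reads per Mki67 read in NK pool 1 (1.04 to 1.31) and 1.92 in NK pool 2 (1.67 to 2.21), against 1.41 in T pool 1 (1.23 to 1.63) and 3.07 in T pool 2 (2.61 to 3.62). Core histones alone gave 0.520, 0.728, 0.743 and 1.115 in the same order. Within each pool the T library had the higher ratio on both counts. H3 alone gave 0.0829 and 0.0641 in NK and 0.125 and 0.0950 in T, with pool 1 the higher in each cell type.

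The S phase list, genes that copy DNA, offered a second denominator. Its summed level was 1367 and 1055 normalized CPM in NK and 1070 and 852.5 in T. All members per S phase read came to 0.201 (0.185 to 0.219) and 0.201 (0.184 to 0.220) in the NK pools and to 0.244 (0.220 to 0.270) and 0.255 (0.233 to 0.279) in the T pools. Both T ratios lay above both NK ratios, and their counting intervals began just above the end of those of NK. H2B per S phase read was 0.0113 and 0.0114 in NK and 0.0267 and 0.0187 in T, and H4 was 0.0241 and 0.0222 in NK and 0.0288 and 0.0328 in T. For both classes the values of NK and T were apart, but counting intervals overlapped. For H4 the interval was 0.0191 to 0.0300 in NK pool 1 and 0.0217 to 0.0376 in T pool 1. For H2B it was 0.0079 to 0.0160 in NK pool 2 and 0.0136 to 0.0251 in T pool 2. In the other classes the values themselves overlapped, with H1 at 0.112 and 0.125 against 0.116 and 0.163, H2A at 0.0399 and 0.0360 against 0.0509 and 0.0333, and H3 at 0.0143 and 0.00672 against 0.0216 and 0.00790.

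None of the 29 S phase genes was called by limma (2.31% of all genes), edgeR (2.73%) or with the pool as a block (8.28%). Their median log2 difference was 0.53, with 22 positive and 7 negative. Both NK values lay above both T values for 8 of the 29 (22.1% of all genes) and below for 0 (21.3% of all genes). Lig1, the ligase that joins Okazaki fragments, stood at 177 and 127 in NK and at 171 and 62.7 in T. Pcna, the sliding clamp of DNA polymerase, was at 115 and 101 in NK and 85.9 and 112 in T. Mcm6, a subunit of the replicative helicase, was at 78.1 and 133 in NK and 60.0 and 69.1 in T, where both NK values were the higher (log2 difference 0.65, SE 0.37; limma, Benjamini-Hochberg adjusted p = 0.530).

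The 19 genes of G2 and M phase followed Mki67 in the pools. Their summed level was 1122 and 501 normalized CPM in NK and 802 and 362 in T, or ratios of 2.24 (2.10 to 2.39) and 2.21 (2.04 to 2.40), while the S phase sum gave 1.30 (1.23 to 1.36) and 1.26 (1.18 to 1.33). For 12 of the 19, pool 1 was at least 1.5 times pool 2 in both cell types, against 10.8% of all genes by the rule above. All 19 had reads in every library. Top2a, the topoisomerase that untangles sister chromatids, stood at 335 and 177 in NK and at 319 and 118 in T. Cenpe, a kinetochore motor, was at 105 and 52.1 in NK and 71.0 and 23.7 in T, and Cenpf, a kinetochore protein, at 90.3 and 37.9 against 63.9 and 34.0. NK and T overlapped for all 3, although NK was the higher within each pool. Over the list the median log2 difference was 0.53, with 18 positive and 1 negative. Limma called 0 of the 19, against 2.31% of all genes (lowest Benjamini-Hochberg adjusted p = 0.571).

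Most replication-independent histones are variants made throughout the cell cycle from polyadenylated mRNA. The listed genes summed to a lower level in pool 1 than in pool 2 of T cells. In NK the sums were close. Limma called 0 of the 9 tested of 11 listed, against 2.31% of all genes, with a median log2 difference of 0.17. H3f3b, one of the genes for the variant H3.3, stood at 684 and 780 normalized CPM in NK and at 453 and 934 in T, with overlapping groups. H2afy, encoding macroH2A1, was at 260 and 296 in NK and 249 and 235 in T, and H2afv, encoding an H2A.Z, at 88.7 and 89.7 against 140 and 105. The summed ratio of pool 1 to pool 2 of the list was 0.958 (0.914 to 1.00) in NK, or 0.999 without the scaling factor, and 0.675 (0.639 to 0.713) in T. H3f3b was the most abundant of them and made most of the difference between the T sums of 1026 and 1520. The sum did not stand for every gene: H1f0, a linker variant named after its values were seen, was at 28.5 and 19.9 in NK and 16.5 and 11.7 in T, the higher values being those of pool 1. Per kilobase, the summed level was 457 and 467 for these variants and 265 and 184 for the 70 members in NK, against 372 and 533 and 292 and 186 in T.

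The machinery that makes and carries histones was likewise without a limma call, against 2.31% of all genes. Of 12 listed genes of histone mRNA processing 11 were tested, with a median log2 difference of -0.07, 4 positive and 7 negative. Slbp stood at 19.9 and 33.3 normalized CPM in NK and at 29.7 and 22.3 in T, so the groups overlapped, and its pool ratio was 0.598 (0.414 to 0.853) in NK and 1.33 (0.909 to 1.95) in T. Eri1, an exonuclease that trims histone mRNA ends, was at 86.2 and 119 against 113 and 96.7. Casp8ap2, known as FLASH and part of the cleavage complex, was at 118 and 93.6 against 83.7 and 113, and Cpsf2, another subunit, at 65.1 and 44.0 against 63.3 and 44.3. Cpsf2 was higher in pool 1 of both cell types, whereas Eri1 and Casp8ap2 were not.

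All 15 histone chaperone genes were tested, with a median log2 difference of -0.19, 6 positive and 9 negative. Atrx, which works with Daxx to deposit H3.3, stood at 288 and 328 in NK and 409 and 275 in T. Nap1l1, a chaperone of H2A and H2B, was at 224 and 235 in NK and 286 and 254 in T, both T values being the higher. Ssrp1, a subunit of the FACT complex, was at 217 and 184 in NK and at 158 and 107 in T, both NK values being the higher (log2 difference 0.62, SE 0.33; limma, Benjamini-Hochberg adjusted p = 0.494). No gene in the 5 lists passed with limma, edgeR or DESeq2, against 2.31%, 2.73% and 3.55% of all genes.

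Many H2A and H2B genes sit head to head, sharing the stretch between their starts. With starts at most 500 bases apart there were 14 such pairs, holding 28 members. Both genes were tested in 2 pairs. Hist2h2ac and Hist2h2be, 239 bases apart, both had higher values in T, with log2 differences of -1.03 and -1.88. Hist1h2ac and Hist1h2bc, whose shared promoter is printed above, had differences of 1.69 and -0.16. In 5 pairs 1 gene had no read while its partner had some, such as Hist1h2ae with 72 reads and Hist1h2bg with 0, and in 2 pairs neither had a read. Of the genes without a read in those 5 pairs, Hist3h2bb-ps and Hist1h2aj are annotated as pseudogenes. In Hist1h2br, another of them, only 11.3% of the 50-base stretches are unique.

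Reads concentrated on genes whose annotated transcript runs far past the stem-loop. The 22 members with an annotated end more than 100 bases past it took 1760 of the 2364 reads (74.5%), and the 22 members with an end within 100 bases took 222 (9.39%). Most of the 1760 belonged to Hist1h1e (638) and Hist1h1c (538). The remaining 26 members, with no stem-loop in the searched window, took 382 (16.2%). The annotated transcript ran 1153 bases past the stem-loop for Hist1h1e, 840 for Hist1h1c and 4884 for Hist1h1d. By library, the first group took 75.5% and 77.3% of histone reads in NK and 64.6% and 78.2% in T, and T pool 1 was the lowest. The members that end near the loop summed to 31.3 and 14.9 normalized CPM in NK and 31.4 and 16.3 in T, the higher values being those of pool 1. Longer transcripts offer more sequence to count, and the reads do not show which ends were used.

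Sequence sharing limits how far single members can be told apart. The median member had 45.5% of its 50-base stretches unique among annotated transcripts, 36 of the 70 had less than 50% and 5 had none. The class medians were 98.9% for H1, 26.8% for H2A, 55.9% for H2B, 38.0% for H3 and 60.5% for H4. Members with at least 50% unique stretches held 86.4% of the histone reads. Exons of 7 members overlapped another gene on the same strand and those of 23 on the opposite strand, and no strand setting is given in the sources used here. How the authors' counting treated reads that match several copies is likewise unstated, so values of H2A and H3 genes below 50% are uncertain.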

How the data were processed

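Per the labels' protocols, tumours were broken up, strained, enriched for immune cells on Percoll and sorted, and total RNA was made into Illumina libraries. Per the submitters' processing notes, the tools were STAR 2.7.0f, Bowtie2 2.3.4.1, limma and FastQC and the build was GRCm38.p6, with no roles named. How reads were counted, with which strand setting, and how values were scaled were not given in the sources used here. Per the file headers, the authors' table holds 1 column of signal for each library. Every non-zero value was a whole multiple of the value of 1 read (100% within 0.001 reads), so whole reads were recovered. The implied scaling factors of 1.10, 1.06, 0.878 and 0.975 (NK pools 1 and 2, T pools 1 and 2) were close to TMM factors recomputed from those reads (1.103, 1.058, 0.878 and 0.976). The design had allowed for linear values, so the planned test was kept, and tests on recovered reads served as alternatives. Rows without a gene name, 797 in all, held 0.0198% to 0.0214% of reads and were left out of the tests. All 55450 identifiers were found in GENCODE M21.

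Genes with a mean of at least 1 were tested as log2(value + 1) with limma 3.58.1 (R 4.3.3; eBayes with trend, residual degrees of freedom 2), and p-values were adjusted over all 12105 genes. Fold changes on this scale understate those of low genes. Alternatives were pseudocounts of 0.5 and 2, other filters, edgeR 4.0.16, DESeq2 1.42.0, a block for the pool of mice, and leaving out each library. Tables, intervals and sequence searches used Python 3.11.15, pandas 2.3.3, numpy 2.4.6 and scipy 1.17.1. The limma script was tested on simulated data. The labels do not say that the pools were independent beyond their numbers of mice, so p-values measure the spread between pools. Every library pair differed by more than sampling noise, with chi-square over its degrees of freedom between 10.3 and 32.5.

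Replicate numbers were taken to pair libraries across cell types, since pool 1 combined 4 mice and pool 2 combined 6 in both. That the NK and T cells of a number came from the same mice is an assumption. Comparisons within a pool and the fit with a block rest on it. Over 12105 genes, the pool difference in NK correlated with that in T at 0.162. No source states a block, so the fit without one was kept.

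Named genes were the 5 most abundant members of each class, the members with the largest and smallest difference among those with a mean of at least 10, Mki67, and the 3 most abundant genes of each of the 5 lists, none of which had a called gene. Members and lists were chosen with earlier results of these data known.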

Additional observations from a re-analysis of the deposited data

How the results depend on the processing

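No histone member and no gene of the 5 lists was called under any of the 12 settings run with limma, edgeR or DESeq2. For all genes the count moved from 280 to 241 and 313 with pseudocounts of 0.5 and 2, 353 without a filter, 277 with a mean of at least 5, 330 with edgeR and 430 with DESeq2, and 0 to 0 when any 1 library was left out, where a lone library is assumed to vary like the others (752 to 1754 genes at an unadjusted p under 0.05). With the replicate block it was 1002. That fit has 1 residual degree of freedom, and it changed no other call. Without the scaling factor, the median NK minus T difference of all genes shifted from 0.02 to 0.22, the log2 ratio of the sum of all members became 0.26 and that of H1 0.34. On reads outside ribosomal RNA genes the median difference of all genes was -0.0035. Leaving out the most abundant member gave -0.32 for H1 and 0.31 for H4. Restricting H2A to members with at least 50% unique stretches, a choice made after seeing the data, gave 0.92. That value comes from Hist3h2a, Hist1h2ae and Hist1h2ac alone.

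Leaving out single libraries gave log2 ranges of -0.17 to 0.20 for all members, 0.01 to 0.22 for H1, -0.24 to 0.71 for H2A, -1.06 to -0.21 for H2B, -1.07 to 0.98 for H3, -0.33 to 0.16 for H4 and -0.19 to 1.18 for Mki67. The direction of these members turned in that way: Hist1h1d (-0.18 to 0.62), Hist1h2ae (-0.22 to 1.18), Hist1h2bc (-0.72 to 0.40), Hist2h3b (-0.83 to 1.45), Hist1h3c (-0.10 to 1.55), Hist4h4 (-1.45 to 0.018) and Hist1h4i (-0.18 to 2.31). Among the other genes it turned for H3f3b (-0.35 to 0.69), Eri1 (-0.27 to 0.18), Casp8ap2 (-0.10 to 0.32), Cpsf2 (-0.26 to 0.29), Atrx (-0.41 to 0.16), Lig1 (-0.19 to 1.25), Pcna (-0.056 to 0.32), Top2a (-0.39 to 1.04) and Cenpf (-0.29 to 0.94). The cause was not tested. The remaining 403 values of named genes under an alternative kept their direction and their side of the threshold. Depth limits single members, since 39 of 70 had at most 9 reads in all.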
